A study of Canis lupus familiaris with 7 samples.

Results

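The Notch genes described here are the receptors *NOTCH1*, *NOTCH2*, *NOTCH3* and *NOTCH4*, the ligands *JAG1*, *JAG2*, *DLL1* and *DLL4*, and the target genes *HES1* and *HEY1*, 10 genes chosen by symbol as core members of one signalling pathway. Of these, 9 had a row in the deposited table of 24580 genes, and all 9 were measured well enough to be tested. No row carried the symbol *HES1*, so *HES1* was not analysed here.

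Notch receptors are single-pass membrane proteins that are bound by Jagged and Delta-like ligands on a neighbouring cell. Ligand binding exposes the receptor to an ADAM protease and then to gamma-secretase, which frees the intracellular domain to enter the nucleus, join RBPJ and switch on target genes of the HES and HEY families. In bone the pathway is known for regulating the differentiation of osteoblasts, and in blood vessels it restrains endothelial sprouting, with DLL4 as a main ligand and NOTCH4 as a receptor enriched in endothelium, and maintains mural cells (pericytes and smooth muscle) through NOTCH3.

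The samples came from dogs with osteosarcoma (OSA), a malignant tumor of bone. One group was grossly normal bone taken next to a tumor (non-tumor; N1, N3, N8 and N9, n = 4) and the other was tumor with a histological diagnosis of OSA (T1, T3 and T10, n = 3), each collected at amputation or after euthanasia, with no age, breed or treatment used here. RNA from whole tissue was sequenced, and each gene is given in FPKM, a fragment count scaled by transcript length and library size. The sources call the non-tumor tissue matched to tumor but do not tie the sample numbers to dogs, so whether N1 with T1 and N3 with T3 came from the same dog is not known here, and *p*-values measure the spread between these samples.

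The samples within a group differed widely, and this bears on every gene below. N1, labelled non-tumor, lay closest to the tumor T1: across 13507 genes the correlation of their log2(FPKM + 1) values was 0.917, against 0.812 for the next closest pair (N8 and N9), as a description across genes that are not independent replicates. Only 8.23% of genes differed between N1 and T1 by more than 1 on the log2 scale, whereas the next lowest share, between N3 and N8, was 26.9%. Whether N1 held tumor tissue or carries the wrong label was not tested, and the non-tumor means and ranges below include it. Results were therefore also computed without N1, and without both N1 and T1. Among 8 osteoblast marker genes with a row, the summed level was between 115 (N8) and 1540 FPKM (N1) in non-tumor and between 965 (T10) and 3622 FPKM (T1) in OSA tumor. In T3 *SPP1* alone held 1448 of 1619 FPKM. By the mean log2(FPKM + 1) of the 8 genes, T3 (4.36) was below N1 (6.27) and N3 (5.14). *SP7*, a transcription factor required for osteoblast formation, stood at 99.4 FPKM in N1 and 104 FPKM in T1. It was at 7.59 FPKM in T10, 0.991 FPKM in T3 and no more than 1.26 FPKM in N3, N8 and N9. Skeletal muscle markers, 10 genes, summed to 82.3 (N1), 1386 (N3), 76444 (N8) and 49398 FPKM (N9), and to between 6.09 and 9.60 FPKM in tumor, so N8 and N9 held muscle RNA beside bone RNA. In whole tissue, fewer cells of a type and less RNA per cell cannot be told apart. The number of genes at 1 FPKM or more was lowest in T10 (11995) and highest in N3 (12624), and the step between low values placed the relative depth of the samples between 0.545 (N8) and 1.45 (T10) times that of N1.

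The comparison of OSA tumor with non-tumor asked which genes of the pathway differ in expression between malignant and adjacent bone. Of the 9 Notch genes, *HEY1* was higher in tumor, and no receptor or ligand passed the threshold in either direction (limma, with a log2 fold change of 1 or more in either direction and *p* below 0.05 before adjustment). That is 1 of 9 genes higher, where 3.28% of all 13507 genes tested were higher, and 0 of 9 lower, where the share of all genes was 3.58%. The median log2 fold change of the 9 genes was -0.24, beside -0.02 over all genes, with 3 positive and 6 negative values. After Benjamini-Hochberg adjustment over all genes no gene in the table had an adjusted *p* under 0.05 by limma, although 927 had an unadjusted *p* under 0.05, and the smallest adjusted *p* was 0.693. The ranges of the groups overlapped in every one of the 9 genes, while 5.85% of all genes had groups that did not overlap.

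**Figure D1:**
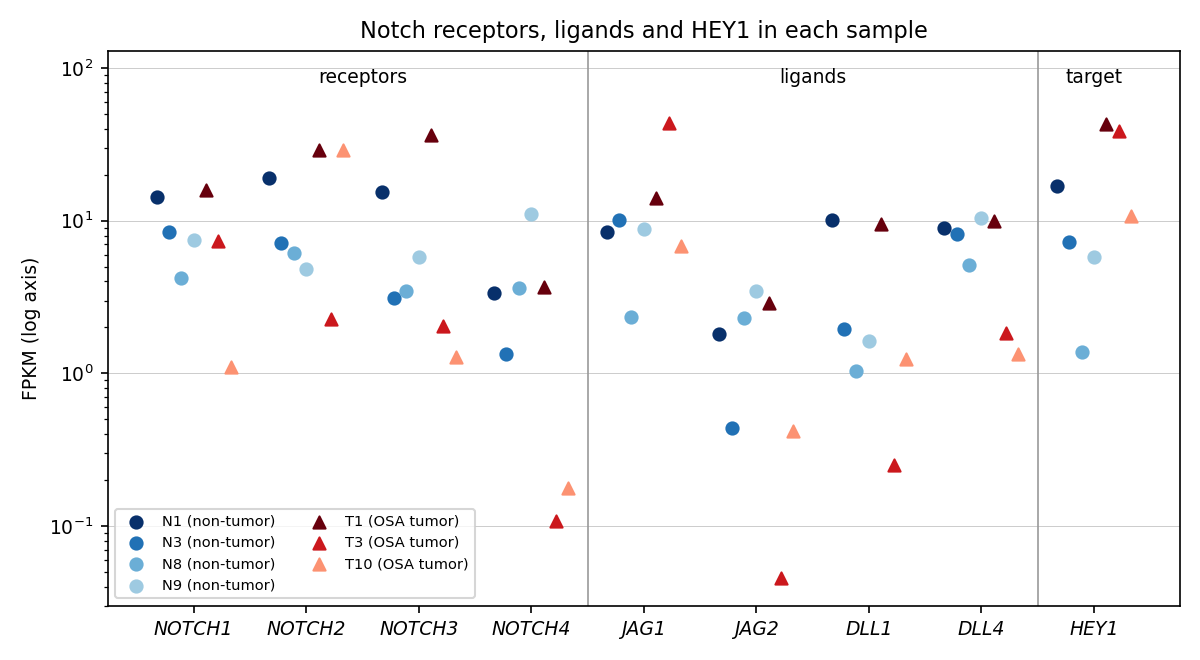
Expression of the 4 Notch receptors, the 4 ligands and *HEY1* in FPKM (log axis), with 1 point per sample; blue circles are non-tumor and red triangles are OSA tumor. The darkest circle (N1) and the darkest triangle (T1) lie near each other in most genes, and T3 and T10 fall below the non-tumor samples in *NOTCH3*, *NOTCH4* and *DLL4*.

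*HEY1* (ENSCAFG00000008391, CanFam3.1 chr29:27184046-27188121), a basic helix-loop-helix repressor induced by Notch, was measured at 16.9 (N1), 7.22 (N3), 1.38 (N8) and 5.83 FPKM (N9). In OSA tumor it stood at 43.3 (T1), 38.7 (T3) and 10.8 FPKM (T10). All 3 tumors lay above N3, N8 and N9, and the groups overlapped because N1 was higher than T10. The means were 7.84 ± 6.56 FPKM (SD, n = 4) and 31.0 ± 17.6 FPKM (SD, n = 3), and the log2 fold change of FPKM + 1 was 1.97 (SE 0.75; limma, *p* = 0.0267, adjusted *p* = 0.693; exact two-sided permutation test, *p* = 0.114). The smallest *p* that the exact test can give for 4 against 3 samples is 0.0571. The call was lost without T1 (1.63), without T3 (1.71) and without N8 (1.46), so it held in 4 of the 7 fits that left out a sample. It was larger without N1 (2.43) and held without both N1 and T1 (2.08). The share of all genes called higher was 4.43% without T1, 3.05% without T3, 1.5% without N8, 6.24% without N1 and 6.4% without both N1 and T1. Osteoblast markers had a median log2 fold change of 1.56, and N8, the lowest sample for *HEY1*, was also the lowest for those markers. T3 went the other way. Its mean log2(FPKM + 1) of the markers was 4.36, below N1 (6.27) and N3 (5.14), while its *HEY1* was above that of N1 and N3. The part of osteoblasts in the difference of *HEY1* was not tested.

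Among the receptors, *NOTCH4* had the lowest level in T3 and T10. *NOTCH4* (ENSCAFG00000000791, CanFam3.1 chr12:1412306-1624856, an interval that the authors' table gives to 16 genes), the receptor expressed mainly in endothelium, was measured at 3.37 (N1), 1.34 (N3), 3.61 (N8) and 11.02 FPKM (N9). The tumors held 3.67 FPKM (T1), 0.107 (T3) and 0.176 (T10), and T1 alone made up 92.8% of their sum. T1 sat among the non-tumor samples, while T3 and T10 were below all of them. The log2 fold change was -1.42 (SE 0.73; limma, *p* = 0.0846; exact permutation, *p* = 0.229) and did not pass the threshold. It passed without T1 (-2.09), without N3 (-1.77), without both N1 and T1 (-2.15) and with a pseudocount of 0.1 in place of 1 FPKM (-2.66). It did not pass in the other fits that left out a sample, with the smallest size without N9 (-0.98). The share of all genes called lower, in the order given, was 4.57%, 4.47%, 7.83% and 4.32% in the fits where it passed.

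*NOTCH3* (ENSCAFG00000016107, CanFam3.1 chr20:46946483-46978119), the receptor of mural cells, varied with an SD of 20.1 FPKM among the tumors. It stood at 15.4 (N1), 3.13 (N3), 3.45 (N8) and 5.75 FPKM (N9), and at 36.4 (T1), 2.03 (T3) and 1.29 FPKM (T10). The highest tumor and both lower tumors thus lay on opposite sides of the whole non-tumor range. The log2 fold change was -0.08 (SE 0.97; limma, *p* = 0.939; exact permutation, *p* = 0.971), and -0.92 without both N1 and T1, short of the threshold. Quantile normalization and rescaling without the most abundant feature of T1 turned it positive, at 0.14 and 0.22.

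*NOTCH1* and *NOTCH2* are the broadly expressed receptors. *NOTCH1* (ENSCAFG00000019633, CanFam3.1 chr9:48863937-49160555, an interval given to 13 genes) was measured at 14.4, 8.39, 4.20 and 7.47 FPKM in N1, N3, N8 and N9, and at 15.8, 7.37 and 1.10 FPKM in T1, T3 and T10. The log2 fold change was -0.42 (SE 0.73; limma, *p* = 0.576; exact permutation, *p* = 0.629), smaller than its standard error. *NOTCH2* (ENSCAFG00000010476, CanFam3.1 chr17:56651571-57020991, an interval given to 6 genes) was measured at 19.1 FPKM in N1 and at 7.19, 6.14 and 4.83 FPKM in N3, N8 and N9. T1 and T10 held 29.1 and 29.0 FPKM, and T3 held 2.27 FPKM, the lowest of the 7 samples. Tumors therefore took both ends of the range, with a log2 fold change of 0.66 (SE 0.84; limma, *p* = 0.451; exact permutation, *p* = 0.629). Without T3 *NOTCH2* was higher in tumor and past the threshold (1.73), in a fit that called 3.05% of all genes higher. Without T1 or T10 its log2 fold change was 0.12 or 0.13, and without N1 1.04, short of the threshold.

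*JAG1* (ENSCAFG00000005627, CanFam3.1 chr24:11655587-11694554, an interval given to 3 genes), a Jagged ligand, had the only positive log2 fold change among the 4 ligands over the 7 samples. Its level was 8.46 (N1), 10.2 (N3), 2.36 (N8) and 8.85 FPKM (N9), and 14.1 (T1), 44.0 (T3) and 6.87 FPKM (T10). T1 and T3 were above every non-tumor sample and T10 was inside their range. T3 made up 67.7% of the tumor sum, and the log2 fold change was 1.19 (SE 0.69; limma, *p* = 0.120; exact permutation, *p* = 0.229). *JAG1* passed only in the fit without T10 (1.76) among those that left out 1 sample, where 2.16% of all genes were called higher. Its log2 fold change was 0.50 without T3 and 0.79 without N8. *JAG2* (ENSCAFG00000018401, CanFam3.1 chr8:72536337-72550019) had the lowest mean of the ligands in both groups, although *DLL1* was lower than it in N8 and N9. Its level was 1.82, 0.438, 2.29 and 3.48 FPKM in N1, N3, N8 and N9. It stood at 2.91 (T1), 0.0458 (T3) and 0.419 FPKM (T10), with a log2 fold change of -0.63 (SE 0.65; limma, *p* = 0.354; exact permutation, *p* = 0.4) and T1 at 86.2% of the tumor sum.

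*DLL4* (ENSCAFG00000009401, CanFam3.1 chr30:8059894-8068813), the ligand of sprouting endothelial tip cells, was the most even of the 9 genes in non-tumor, at 8.90 (N1), 8.13 (N3), 5.10 (N8) and 10.4 FPKM (N9). In tumor it was 9.99 (T1), 1.84 (T3) and 1.35 FPKM (T10). As for *NOTCH4*, T1 fell within the non-tumor range and T3 and T10 fell below it. The means were 8.13 ± 2.23 FPKM (SD, n = 4) and 4.39 ± 4.85 FPKM (SD, n = 3), with a log2 fold change of -1.09 (SE 0.62; limma, *p* = 0.110; exact permutation, *p* = 0.229). Without T1 it was lower in tumor and past the threshold (-1.78), and likewise without both N1 and T1 (-1.73). It was -0.67 without T10 and -0.81 without T3, short of the threshold. *DLL1* (ENSCAFG00000004094, CanFam3.1 chr12:72265839-72272347), the Delta-like ligand of many developing tissues, was high in the samples numbered 1, at 10.1 FPKM in N1 and 9.56 in T1. It was between 1.03 and 1.96 FPKM in N3, N8 and N9, at 0.252 FPKM in T3 and at 1.23 FPKM in T10. The group means were both 3.68 FPKM, and the log2 fold change was -0.24 (SE 0.85; limma, *p* = 0.789; exact permutation, *p* = 0.743).

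**Figure D2:**
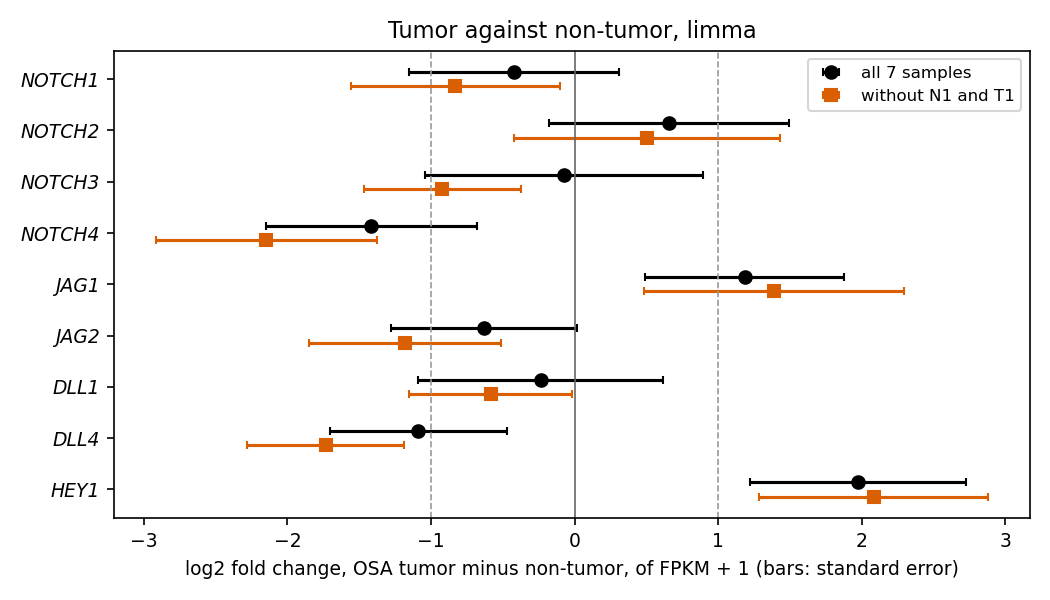
Log2 fold change of FPKM + 1, OSA tumor minus non-tumor, for each Notch gene with its standard error from limma, over all 7 samples (black circles) and without N1 and T1 (orange squares); dashed lines mark a change of 1. *HEY1* is at 1.97 and 2.08, and *NOTCH4* and *DLL4* move from -1.42 and -1.09 to -2.15 and -1.73.

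The sample T1 held the highest value of the 7 samples in 4 of the 9 genes (*NOTCH1*, *NOTCH2*, *NOTCH3* and *HEY1*) and the second highest in the other 5. Such ranks, and the ratios below, depend on the scaling of the deposited FPKM. Their sum over all genes was 1119450 in T1 and 539648 in N1, and the same feature made up 47.3% and 11.3% of it. T3 or T10 was the lowest sample in 7 of the 9 genes, the exceptions being *JAG1* and *HEY1*, which were lowest in N8. Between T1 and N1 the ratio of FPKM ranged from 0.945 for *DLL1* to 2.56 for *HEY1*, and 7 of the 9 genes were within 1 of each other on the log2 scale. N3 and N9 also had 7 of the 9 within 1, with a smaller median difference (0.319, against 0.471 for N1 and T1). Between T3 and N3 the ratio of FPKM ranged from 0.0805 for *NOTCH4* to 5.36 for *HEY1*, with *JAG1* at 4.33 and *DLL4* at 0.227. Without N1 and T1 the groups did not overlap in 5 of the 9 genes, 4 of them below non-tumor (*NOTCH3*, *NOTCH4*, *JAG2* and *DLL4*) and 1 above it (*HEY1*). In that comparison of 3 with 2 samples, chosen after the values were seen, 34.2% of all genes did not overlap, 17.6% below and 16.6% above, and 7.83% of all genes passed the threshold as lower.

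Because FPKM is scaled to transcript length, the levels of different genes can be set side by side. In non-tumor the order of mean FPKM was *NOTCH2* (9.30), *NOTCH1* (8.61), *DLL4* (8.13), *HEY1* (7.84), *JAG1* (7.46), *NOTCH3* (6.94), *NOTCH4* (4.83), *DLL1* (3.68) and *JAG2* (2.01). Each neighbouring pair in that order was closer than the SD of the higher gene, which was between 2.23 FPKM (*DLL4*) and 6.58 FPKM (*NOTCH2*). In tumor the order was *HEY1* (31.0), *JAG1* (21.7), *NOTCH2* (20.1), *NOTCH3* (13.2), *NOTCH1* (8.10), *DLL4* (4.39), *DLL1* (3.68), *NOTCH4* (1.32) and *JAG2* (1.12), and neighbours again differed by less than the SD of the higher gene, which was 19.7 FPKM for *JAG1* and 20.1 FPKM for *NOTCH3*.

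The composition of the receptors and of the ligands within each sample was then compared, which does not depend on the scaling of a sample. *NOTCH4* made up 6.45%, 6.66%, 20.7% and 37.9% of the summed receptor FPKM in N1, N3, N8 and N9, and 4.32%, 0.912% and 0.559% in T1, T3 and T10. Every tumor was below every non-tumor sample, with means of 17.9 ± 14.9% (SD, n = 4) and 1.93 ± 2.08% (SD, n = 3). The difference of -16.0 percentage points had *p* = 0.0571 in the exact two-sided permutation test, the smallest value it can give, and *p* = 0.229 after adjustment over the 8 shares compared. N9 held the largest share, and without it the difference was -9.35 points. The leading receptor differed among tumors. *NOTCH3* led in T1 with 42.8%, *NOTCH1* led in T3 with 62.6%, and *NOTCH2* led in T10 with 91.9%. The summed receptor level was between 17.4 and 52.2 FPKM in non-tumor and at 85.0, 11.8 and 31.6 FPKM in T1, T3 and T10.

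Among the ligands, *DLL4* made up 30.4%, 39.3%, 47.3% and 42.7% of the summed FPKM in N1, N3, N8 and N9, against 27.3%, 3.996% and 13.6% in T1, T3 and T10. Again no tumor reached the non-tumor range. The means were 39.9 ± 7.15% (SD, n = 4) and 14.99 ± 11.7% (SD, n = 3), a difference of -24.9 percentage points (exact permutation, *p* = 0.0571, adjusted *p* = 0.229). *JAG1* made up 28.9%, 49.2%, 21.9% and 36.4% in N1, N3, N8 and N9, and 38.6%, 95.4% and 69.6% in T1, T3 and T10. T3 and T10 were above all non-tumor samples and T1 was below N3, and the difference of 33.8 percentage points had *p* = 0.114 (exact permutation). It was 20.03 points without T3 and 48.4 points without T1. *DLL1* made up 34.5% in N1 and 26.1% in T1 and at most 12.5% in the other samples, and *JAG2* at most 21.3% (N8).

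**Figure D3:**
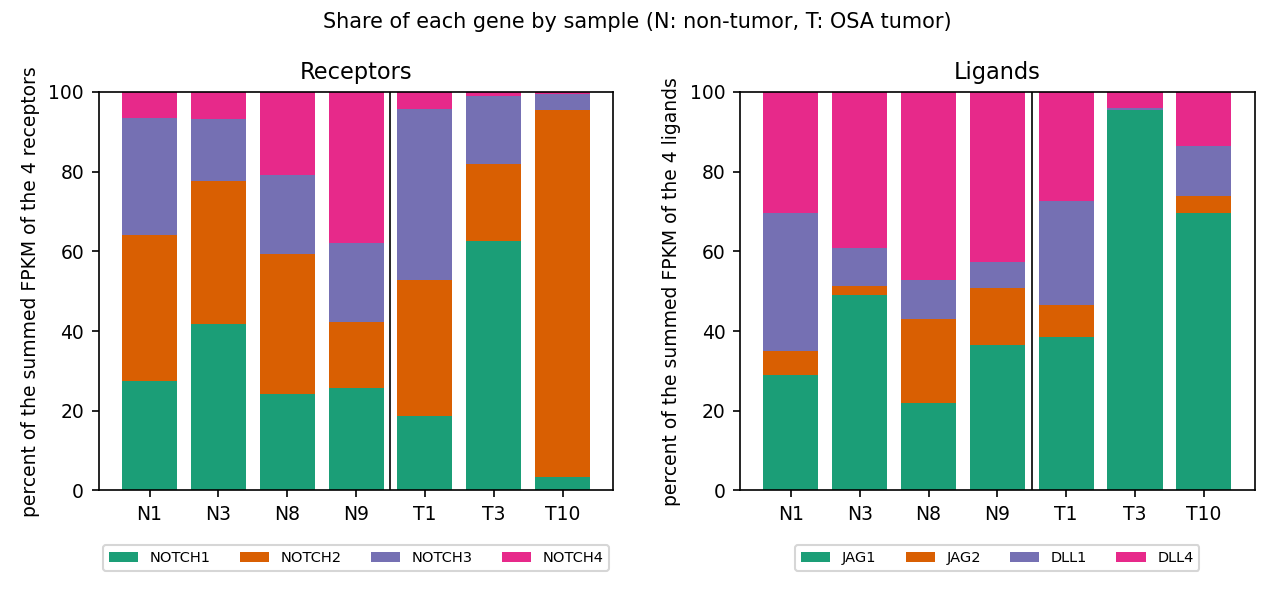
Percent of the summed FPKM of the 4 receptors and of the 4 ligands in each sample, stacked to 100; the vertical line separates non-tumor from OSA tumor. *NOTCH2* takes 91.9% of the receptor sum in T10 and *JAG1* takes 95.4% of the ligand sum in T3, whereas *NOTCH4* and *DLL4* take a smaller share in every tumor than in any non-tumor sample.

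Markers of blood vessels were measured beside the genes that vessels are known to express. Of 12 endothelial symbols 11 had a row and were tested. None was higher and 4 were lower in tumor (*CDH5*, *TEK*, *TIE1* and *ESAM*), where 3.28% of all genes were higher and 3.58% lower. All 11 had a negative log2 fold change, from -2.18 (*TEK*) to -0.34 (*EMCN*), with a median of -1.44. Of the 7 fits that left out a sample, *TEK* passed in 7, *ESAM* in 5, *CDH5* in 2 and *TIE1* in 1. The summed level of the 11 markers was between 94.2 and 399 FPKM in non-tumor, at 123 FPKM in T1, and at 35.4 and 32.4 FPKM in T3 and T10. The low samples for *DLL4* and *NOTCH4* were thus also the low samples for this sum. Single markers differed from it, with *ERG* in T10 (4.99 FPKM) above N1 (3.86) and *EMCN* in T3 (5.90 FPKM) above N8 (5.13). Set against the mean of the endothelial markers in the same sample, *DLL4* differed between the groups by 0.36 on the log2 scale (exact permutation, *p* = 0.457) and *NOTCH4* by 0.03 (*p* = 0.971). The log2 fold changes of the genes themselves were -1.09 and -1.42. These relative values depend on which markers are averaged, and the part of vessel content in the differences was not tested. Relative to the markers, *DLL4* ran from 0.14 without N9 and 0.21 without T1 to 0.63 without N1. A pseudocount of 0.1 FPKM moved the value of *NOTCH4* to -0.85. The defining markers *CDH5* and *PECAM1* were detected in every sample, with *CDH5* at 24.5 (T1), 1.05 (T3) and 1.57 FPKM (T10).

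Of 10 mural symbols 7 had a row and none passed the threshold. Their log2 fold changes were positive in 4 and negative in 3, with a median of 0.59, and the mean over the list differed by 0.18. *MYH11*, smooth muscle myosin, was at -1.09 with every tumor below every non-tumor sample. The list had summed levels between 100 and 257 FPKM in non-tumor and between 127 and 333 FPKM in tumor. Relative to them *NOTCH3* differed by -0.26 (exact permutation, *p* = 0.743) and *HEY1* by 1.80 (*p* = 0.114), close to the 1.97 of *HEY1* itself, and *HEY1* was at 1.18 without T3. In T3, *HEY1* was among the highest values while the mural markers were at their lowest mean (3.13, against 3.22 in N3). The markers disagreed there, as *PDGFRB* had its highest value of the 7 samples in T3 (62.2 FPKM). None of these 4 relative differences passed after adjustment over the 4 tests, with a smallest adjusted *p* of 0.457.

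**Figure D4:**
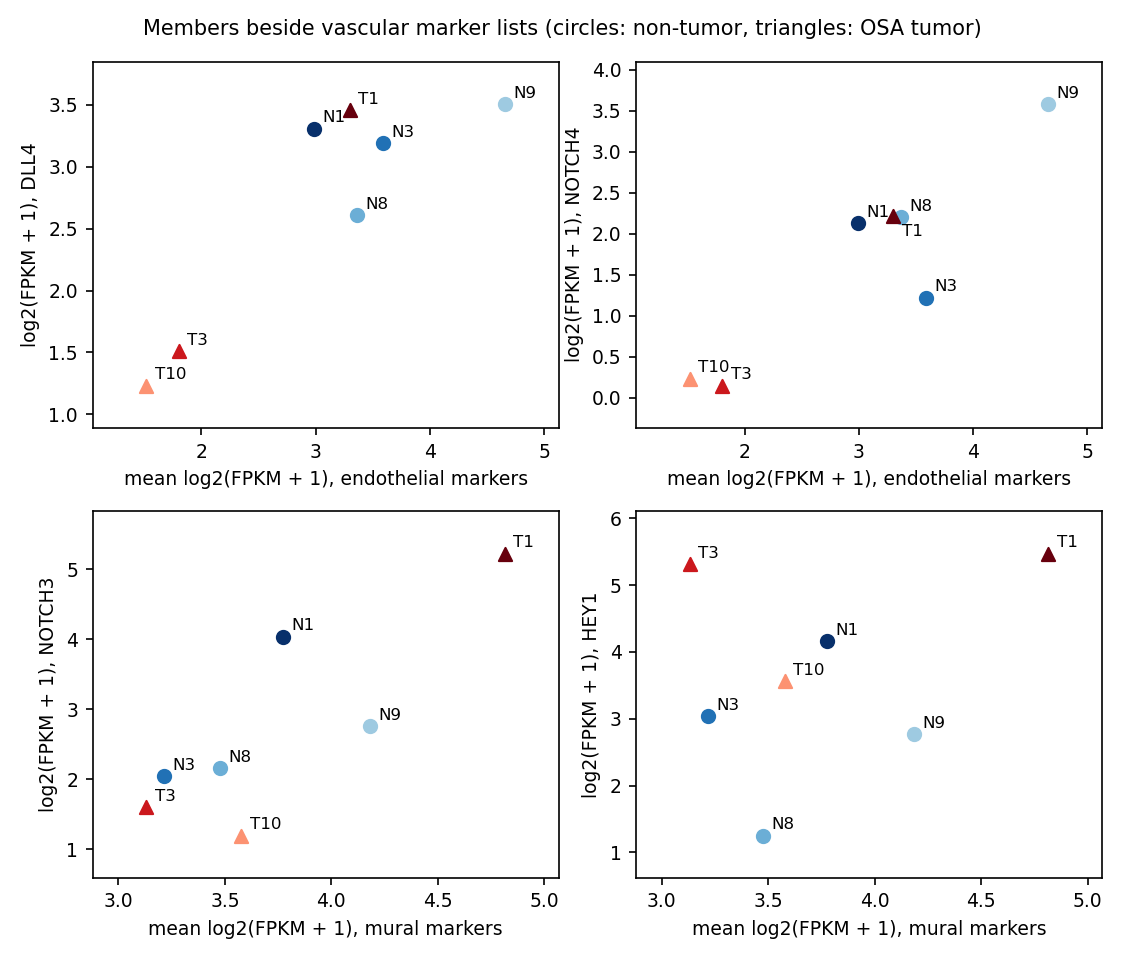
Log2(FPKM + 1) of *DLL4* and *NOTCH4* against the mean of 11 endothelial markers, and of *NOTCH3* and *HEY1* against the mean of 7 mural markers, with 1 point per sample (circles non-tumor, triangles OSA tumor). T3 and T10 are lowest on both axes for *DLL4* and *NOTCH4*, while *HEY1* in T3 is high at the lowest mural mean.

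Of 63 further symbols 58 had a row and 51 were tested. In tumor 2 were higher (*HEY2* and *MFAP2*), 1 was lower (*MFNG*) and 48 did not pass, counts close to the 3.28% higher and 3.58% lower over all genes. Groups did not overlap in 3 of the 51, all above non-tumor (*HEY2*, *POFUT1* and *PSENEN*), where 3.04% of all genes lay above. The median log2 fold change of the 51 genes was 0.14.

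*HEY2* (ENSCAFG00000032212, CanFam3.1 chr1:64632817-64639858), a paralog of *HEY1* and a Notch target, was measured at 6.81 (N1), 4.81 (N3), 0.648 (N8) and 2.06 FPKM (N9). It stood at 31.6 (T1), 6.90 (T3) and 10.4 FPKM (T10). Every tumor was above every non-tumor sample, although T3 exceeded N1 only slightly. The log2 fold change was 1.88 (SE 0.70; limma, *p* = 0.0246; exact permutation, *p* = 0.0571). *HEY2* did not pass without T1 (1.29), without N8 (1.47) or without N9 (1.76), and kept its call without both N1 and T1 (1.62). Of the other tested targets, *CCND1*, which encodes cyclin D1, had a log2 fold change of 1.72 (limma, *p* = 0.0568; exact permutation, *p* = 0.171) and *CDKN1A*, a cell cycle inhibitor, of 1.30 (*p* = 0.0914 and *p* = 0.171). *NRARP*, a target that also inhibits the nuclear complex, had a log2 fold change of -0.04, and the other 3 tested targets lay between -0.49 and 0.22. *HES2* and *HES3* were listed at 0 FPKM in all samples.

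*MFAP2*, a microfibril protein of the extracellular matrix that can bind Notch ligands and receptors, stood at 56.7 (N1), 5.74 (N3), 1.62 (N8) and 1.81 FPKM (N9). The tumors held 89.5 FPKM (T1), 36.4 (T3) and 30.5 (T10). N1 was the exception in its group, above T3 and T10. The log2 fold change was 2.70 (SE 1.02; limma, *p* = 0.0262; exact permutation, *p* = 0.171) and 3.69 without N1. The call was lost without T1 (2.23), T3 (2.87), N8 (2.20) or N9 (2.24).

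*MFNG*, a glycosyltransferase (Manic fringe) that modifies the receptors and shifts their preference among ligands, was measured at 3.63, 14.3, 16.0 and 4.59 FPKM in N1, N3, N8 and N9, and at 4.77, 0.807 and 1.67 FPKM in T1, T3 and T10. T3 and T10 were below all non-tumor samples and T1 was above N1 and N9. The log2 fold change was -1.58 (SE 0.66; limma, *p* = 0.0396; exact permutation, *p* = 0.171), and the call was lost without N3, N8, T3 or T10, with values up to -1.21. N3 and N8, the high samples for *MFNG*, were also high for B lymphocyte markers, whose 7 genes with a row summed to 177 and 72.1 FPKM there and to no more than 5.08 FPKM in the other samples; none of the 6 tested passed. The same samples were the highest for erythroid markers, at 2882 and 4946 FPKM against at most 253 FPKM elsewhere. Of these markers 6 of 9 were lower in tumor, beside 3.58% of all genes. They were also the highest for macrophage markers, at 669 and 588 FPKM, with T1 at 529 FPKM. The part of these cells in the result was not tested.

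*POFUT1*, which adds the O-fucose that fringe enzymes extend, had a level between 7.97 and 20.8 FPKM in non-tumor and between 21.9 and 26.4 FPKM in tumor. Its log2 fold change of 0.79 was below the threshold (limma, *p* = 0.133; exact permutation, *p* = 0.0571). *PSENEN*, a subunit of gamma-secretase, was between 81.6 and 100.3 FPKM in non-tumor and at 118, 227 and 118 FPKM in T1, T3 and T10, with a log2 fold change of 0.73 (limma, *p* = 0.156; exact permutation, *p* = 0.0571). The 9 receptor proteases as a list had a median log2 fold change of 0.28 with none past the threshold.

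In the lists with no call, the largest difference among ligand endocytosis genes was that of *NEURL1*, a ubiquitin ligase acting on ligands, at -2.35 (limma, *p* = 0.101; exact permutation, *p* = 0.286). *NEURL1* stood at 50.0 FPKM in N8 and 35.7 in N9, the samples rich in muscle markers, and between 0.224 and 1.24 FPKM in the other 5. In the nuclear complex it was *KAT2B*, an acetyltransferase coactivator (-1.25; limma, *p* = 0.158; exact permutation, *p* = 0.286), and among the corepressors *TLE4* (0.58), which represses transcription as a Groucho-family protein. Among the regulators of receptor turnover it was *NUMBL*, a relative of the Notch inhibitor NUMB, at 1.51 (limma, *p* = 0.171; exact permutation, *p* = 0.286), with 28.1 FPKM in N1 and 28.5 in T1 against 0.501 to 6.35 FPKM in the other 5 samples. Without N1, 5 of the pathway genes were higher (*HEY2*, *MFAP2*, *NUMBL*, *CCND1* and *CDKN1A*) and 3 lower (*MFNG*, *NEURL1* and *KAT2B*), beside 6.24% higher and 8.67% lower over all genes.

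**Figure D5:**
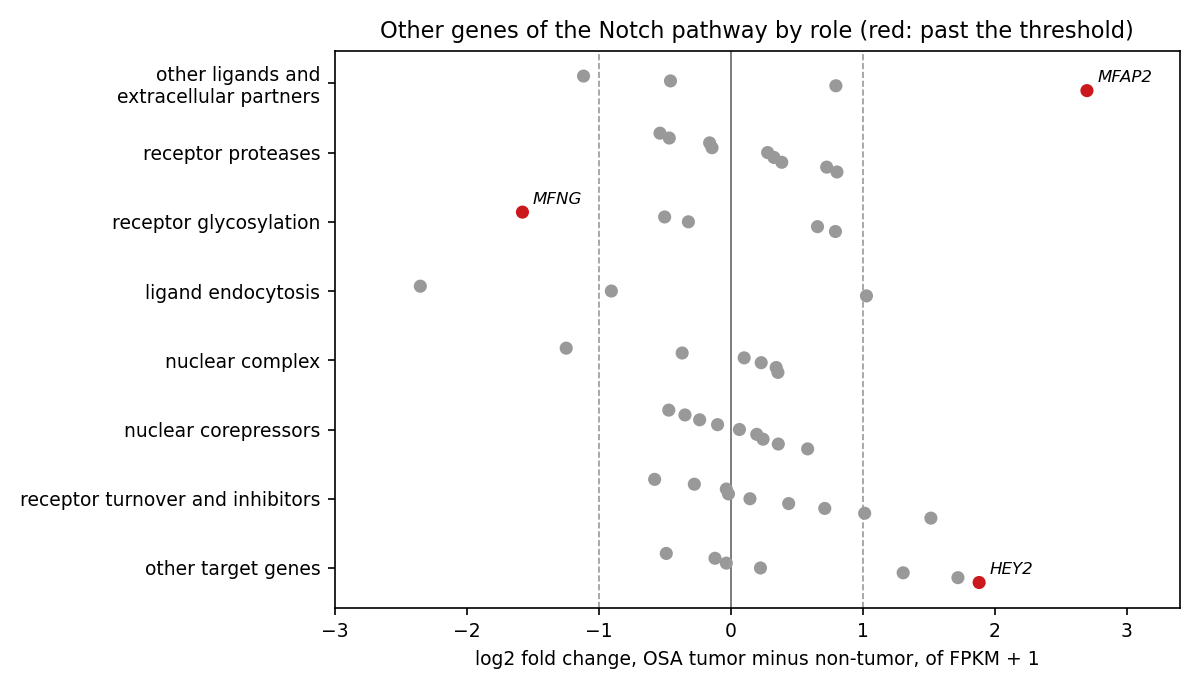
Log2 fold change of FPKM + 1, OSA tumor minus non-tumor, of the other tested genes of the Notch pathway, 1 point per gene, by their role; red points passed the threshold and dashed lines mark a change of 1. *MFAP2* (2.70) and *HEY2* (1.88) lie to the right and *MFNG* (-1.58) to the left, and *NRARP* appears in both lists that hold it.

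To place each Notch gene among the rest of the transcriptome, the genes most alike over the 7 samples were found among the 8730 genes that averaged 5 FPKM or more (the gene itself left out), by Pearson's r of log2(FPKM + 1). These values describe 7 samples that differ in tissue content, and high values are common at this number. The genes most like *DLL4* were *WDR91* (0.981) and *TIE1* (0.977), the latter an endothelial receptor tyrosine kinase. *HEY1* was most like *TMEM192* (0.982) and *C9orf64* (0.976), and *JAG1* most like *HNRNPU* (0.984) and *SSFA2* (0.966). For *NOTCH1* *ULK3* (0.979) is given, for *NOTCH2* they were *FRMD4A* (0.978) and *GALNT10* (0.977), for *NOTCH3* *ODF3B* (0.992) and *LEMD2* (0.989), and for *NOTCH4* *DHX33* (0.983) and *MYO18A* (0.983). For *JAG2* they were *ORAI1* (0.985) and *DUSP7* (0.980), and for *DLL1* *KIFC2* (0.996) and *KLHL17* (0.992). Among the Notch genes themselves the closest pairs were *NOTCH4* with *JAG2* (0.94), *NOTCH3* with *DLL1* (0.91), *NOTCH4* with *DLL4* (0.84) and *JAG1* with *HEY1* (0.84).

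Markers of other cells in the tissue moved with the groups as well. Of 9 erythroid genes 6 were lower in tumor, with a median log2 fold change of -3.66, and they summed to between 7.49 (N1) and 4946 FPKM (N8) in non-tumor and between 3.72 and 78.9 FPKM in tumor. Of the 10 skeletal muscle genes 9 were lower, with a median of -6.92. Over all genes the share called lower was 3.58%. None of the tested macrophage genes (6) or cell cycle genes (7) passed the threshold, with medians of -0.57 and 0.29. The part of these cells in the differences of the Notch genes was not tested.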

How the data were processed

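RNA from 4 non-tumor and 3 OSA tumor samples was sequenced as stranded paired-end libraries. After trimming (Trim Galore) and alignment (Tophat2) to CanFam3.1 with Ensembl iGenomes annotation, the authors computed FPKM with Cufflinks/Cuffdiff, and the deposited FPKM per gene and sample were used. Tool versions are not given in the sources used here. A second deposited table holds the authors' own group comparison (group FPKM, fold changes, test statistics, *p*- and *q*-values), of which only the gene intervals were used, with 1 added to each start. All 7 FPKM columns were used and 0 per-sample columns were left unused. No counts were used, so depth is known only relative to N1. Groups follow the labels.

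Genes averaging 1 FPKM or more were tested on log2(FPKM + 1) with limma 3.58.1 (R 4.3.3; mean-variance trend). A gene passed with a log2 fold change of 1 or more in either direction and *p* below 0.05 before adjustment. Benjamini-Hochberg adjustment covered all genes tested. Fold changes on this scale understate those of low genes. Exact two-sided permutation tests over the 35 assignments used Python 3.11.15, numpy 2.4.6, scipy 1.17.1 and pandas 2.3.3, and figures used matplotlib 3.10.9. The limma step was tested on simulated data.

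The Notch genes, pathway lists and marker lists were chosen with earlier results of these data known. Named genes were all members, pathway genes past the threshold or with groups that did not overlap, the largest change in each pathway list without one, and the 2 genes most alike per member. Some genes that the rule names are not reported here. *CCND1*, *CDKN1A*, *NRARP*, *TLE2* and single marker genes were named outside that rule, after their values were seen. Alternatives were pseudocount, filter, scaling, trend, replicate block and left-out samples. The authors' qRT-PCR and other assays were not analysed here.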

Additional observations from a re-analysis of the deposited data

Results flagged for a closer look

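In groups of 4 samples, a sample was singled out when its gap to the nearest of the others took up more than 0.829 of the range of its group. Chance singles out a sample in about 1 in 20 groups when the groups are independent. The 28 groups here hold the same 4 non-tumor samples in different measures, so that rate cannot be used to judge their count. Of the 28 groups, 6 had such a sample. N1 was the sample in 5 of them. Its FPKM was 19.1 for *NOTCH2*, where the other non-tumor samples lay between 4.83 and 7.19, 10.1 for *DLL1*, where they lay between 1.03 and 1.96, and 56.7 for *MFAP2*, where they lay between 1.62 and 5.74. *DLL1* made up 34.5% of the ligand sum in N1 and between 6.67% and 9.55% in N3, N8 and N9. *NOTCH3* relative to the mural markers was at 0.26 on the log2 scale in N1 and below 0 in the other non-tumor samples. In the remaining group N9 stood apart, with *NOTCH2* at 16.6% of the receptor sum against 35.3% to 36.5% in N1, N3 and N8.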

How the results depend on the processing

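*HEY1* kept its call under every change of pseudocount, filter, scaling, trend and block (log2 fold change 1.79 to 2.24), and ranged from 1.46 to 2.58 when 1 sample was left out. The count of Notch genes called higher was 1, ranging from 0 to 2 with 1 sample left out, and the count called lower was 0, ranging from 0 to 2, and was 1 with a pseudocount of 0.1 (*NOTCH4*, -2.66) and 2 without both N1 and T1. Over all genes 443 were higher and 483 lower. Leaving out 1 sample gave 202 (without N8) to 842 (without N1) higher and 157 (without T10) to 1169 (without N1) lower. Without both N1 and T1 these were 854 and 1044, and with FPKM rescaled to the same sum 272 were higher. Of the other pathway genes, 2 higher ranged from 0 to 5 and 1 lower from 0 to 4 with 1 sample left out. Without both N1 and T1 there were 6 higher and 3 lower. No pathway gene was lower without the filter, with the same sum, or with the same sum without the top feature of T1 (0 in each). Those last scalings moved the median log2 fold change of all genes to 0.12 and 0.31. The causes were not tested.

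Signs turned for *NOTCH1* (-1.09 to 0.41 with 1 sample left out), *NOTCH3* (-1.35 to 0.66 with 1 sample left out, 0.14 with quantile normalization and 0.22 with the same sum without the top feature of T1) and *DLL1* (-1.12 to 0.42). Differences of shares in percentage points, with 1 sample left out, ranged from -18.8 to 10.8 for *NOTCH1*, -4.30 to 32.0 for *NOTCH2*, -10.5 to 8.83 for *NOTCH3* and -8.53 to 4.50 for *DLL1*, and were 2.46 for *NOTCH1* and -7.74 for *NOTCH3* without both N1 and T1. The sign held for *JAG1* (20.03 to 48.4), *JAG2* (-9.83 to -3.44), *DLL4* (-31.1 to -19.4) and *NOTCH4* (-19.8 to -9.35). Relative to vascular markers, *NOTCH4* ranged from -0.31 to 0.19 (-0.85 with a pseudocount of 0.1) *NOTCH3* from -1.04 to 0.35, *DLL4* from 0.14 to 0.63 and *HEY1* from 1.18 to 2.27.

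The numbers 1 and 3 occur in both groups. Deviations from the group means correlated at 0.42 between N1 and T1 and 0.21 between N3 and T3, but the sources, which call the tissues matched, do not say that a number marks a dog. With the number as a fixed block over those 4 samples, 209 genes were higher and 198 lower, 1 other pathway gene was higher (*TLE2*, 1.504, against -0.10 without the block) and 0 lower. *HEY2* (1.25), *MFAP2* (1.56) and *MFNG* (-1.38) lost their calls, *NOTCH4* was at -0.49 and *DLL4* at -0.77, and *NOTCH2* (-0.37), *NOTCH3* (0.37) and *JAG2* (0.0059) turned sign. As a random block over 7 samples it gave 533 and 529, with *NOTCH3* at 0.049 and *HEY1* at 1.88, past the threshold, and *HEY2*, *MFAP2* and *MFNG* called.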
